A study of Mus musculus with 5 samples.

Results

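The cells described here are tumour macrophages rich in transcripts of Mmp12, which encodes macrophage elastase, or of Arg1, which encodes arginase 1. They came from subcutaneous tumours of Renca, a mouse renal cortical adenocarcinoma cell line, grown in Balb/c mice. A cell was a barcode with at least 500 UMIs (unique molecular identifiers, each counting 1 captured transcript) and 300 genes, of whose UMIs no more than 10% were mitochondrial. Members had 5 or more raw UMIs of Arg1 and Mmp12 together. They also had 10 or more of C1qa, C1qb, C1qc and Lyz2 together, the complement C1q and lysozyme genes used to mark macrophages. Lyz2 alone could meet this limit. Upper limits kept other cells out: fewer than 5 UMIs of Cxcl9, at most 2 of Folr2 and Cbr2, fewer than 5 of Ctsk, at most 2 of the cell cycle genes Top2a, Birc5 and Ube2c, at most 1 of Cd3e, Cd3d, Cd3g and Trac, and at most 1 of Epcam. These measured values chose the members, so levels of those 18 genes are given as description and nothing is tested on them. The rule found 1997 members among 52408 cells, with 407 in PBS, 257 in PD1+CTLA4, 501 in PD1+CD40, 471 in CD40+CTLA4 and 361 in Triplet.

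Each of the 5 libraries was a pool of tumour cells from 3 wild-type mice, so a group had 1 library and no replicate. PBS mice received vehicle. PD1+CTLA4 mice received antibodies against PD-1 and CTLA-4, inhibitory receptors of T cells. PD1+CD40 mice received anti-PD-1 and anti-CD40, an antibody against an activating receptor of myeloid and B cells. CD40+CTLA4 mice received anti-CD40 and anti-CTLA-4, and Triplet mice received all of the antibodies. Each antibody was given at 200 µg into the peritoneal cavity on 2 occasions starting on day 10 after implantation, and tumours were taken 24 hours after the second dose. Sorted T cells, other immune cells and CD45-negative cells were recombined in set proportions before loading, so the share of macrophages among all cells was set by the sort. No mouse can be told apart within a pool. The design therefore allows no test between groups, and every interval is an exact 95% interval that covers counting error only.

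Tumour macrophages differ by their surroundings. In poorly oxygenated tissue the transcription factor HIF-1 raises genes of glycolysis and of adaptation to low oxygen, among them Bnip3, Hk2 and Hilpda, and macrophages there often carry arginase 1, which breaks down the arginine that T cells need. Mmp12 is a secreted protease that cuts elastin and other matrix proteins and is made mainly by macrophages. Spp1 encodes osteopontin, a secreted matrix glycoprotein of many tumour macrophages.

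The files held 5137 to 1751343 barcodes per library, and 4404 to 16884 passed as cells where 10000 cells had been loaded. The PBS library stood apart in its transcript ends: T cell receptor V segments made up 78.2% of T cell receptor UMIs there and 3.78% to 5.40% in the treated libraries. PBS therefore entered no ratio between libraries, and its values are compared only within it. Pairs of libraries shared 0 to 69 cell barcodes, and 1 member barcode occurred in a pair of libraries. Members had median depths of 10612, 9180, 9661, 9406 and 13057 UMIs in PBS, PD1+CTLA4, PD1+CD40, CD40+CTLA4 and Triplet, the order kept below. The macrophages they are set against passed the same limits with fewer than 5 UMIs of Arg1 and Mmp12, numbered 17717, and had medians of 2007, 4771, 1222, 1391 and 10779 UMIs.

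Members made up 22.6% (interval 20.7% to 24.7%) of macrophage barcodes in PBS, 12.5% (11.1% to 14.1%) in PD1+CTLA4, 4.13% (3.78% to 4.49%) in PD1+CD40, 3.90% (3.56% to 4.26%) in CD40+CTLA4 and 20.1% (18.3% to 22.0%) in Triplet. A fixed number of UMIs is reached more readily in deep barcodes. When each barcode was thinned to 2000 UMIs and shallower ones were left out, the shares were 12.7%, 4.57%, 3.67%, 3.53% and 9.40%, and after thinning to 5000 UMIs they were 27.2%, 13.3%, 11.4%, 10.5% and 19.4%. PD1+CD40 and CD40+CTLA4 had overlapping intervals under each of these settings, and Triplet had the highest share of the treated libraries. The thinning to 2000 UMIs left out 1008, 2784, 10802, 8820 and 468 cells. In total 3854 macrophages reached 5 UMIs of Arg1 and Mmp12. The other limits removed 1857 of them, 1102 by the cell cycle limit alone. With the threshold set at 500 CPM of each barcode instead of 5 UMIs, the shares were 26.7%, 13.3%, 14.6%, 12.1% and 19.0%; the gap between PD1+CTLA4 and the other antibody pairs was then gone.

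Most members were chosen by Mmp12 and not by Arg1. Of the 1997 members, 1876 (93.9%) had 5 or more Mmp12 UMIs and fewer than 5 of Arg1, 60 reached 5 UMIs of both, 26 of Arg1 only, and 35 reached the sum without either. Mmp12 was at 2389, 1860, 1914, 2239 and 2180 counts per 1000000 UMIs (CPM) in the members. Arg1 was at 40.5 (interval 35.0 to 46.6), 19.8 (14.7 to 26.1), 89.97 (81.6 to 98.997), 242 (228 to 257) and 41.5 (36.0 to 47.6) CPM. The median member had 16, 11, 9, 9 and 17 UMIs of Mmp12 and 0 of Arg1 in every library, while the highest barcode held 493 Mmp12 and 89 Arg1 UMIs.

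At least 1 Arg1 UMI was present in 3.93%, 1.95%, 13.4%, 22.3% and 7.48% of members. In the other macrophages the shares were 3.02%, 0.511%, 2.41%, 3.55% and 4.35%. T cells, which should lack the gene, gave 0%, 0.381%, 0.455%, 0.796% and 0.701% at median depths of 2562 UMIs in PD1+CD40 to 3027 in PBS; the 0 of 548 T cells in PBS allows a share of up to 0.547%. An Mmp12 UMI was present in 98.5% to 100% of members, 26.3% to 43.4% of the other macrophages and 1.78% to 4.01% of T cells, and 22 of 4872 T cells held 5 or more UMIs of Arg1 and Mmp12. Members with 5 or more Arg1 UMIs numbered 7, 2, 21, 45 and 11, or 1.72%, 0.778%, 4.19%, 9.55% and 3.05%. Among the treated libraries Arg1 was thus highest in CD40+CTLA4 and next in PD1+CD40, and even there most members held none.

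**Figure D1:**
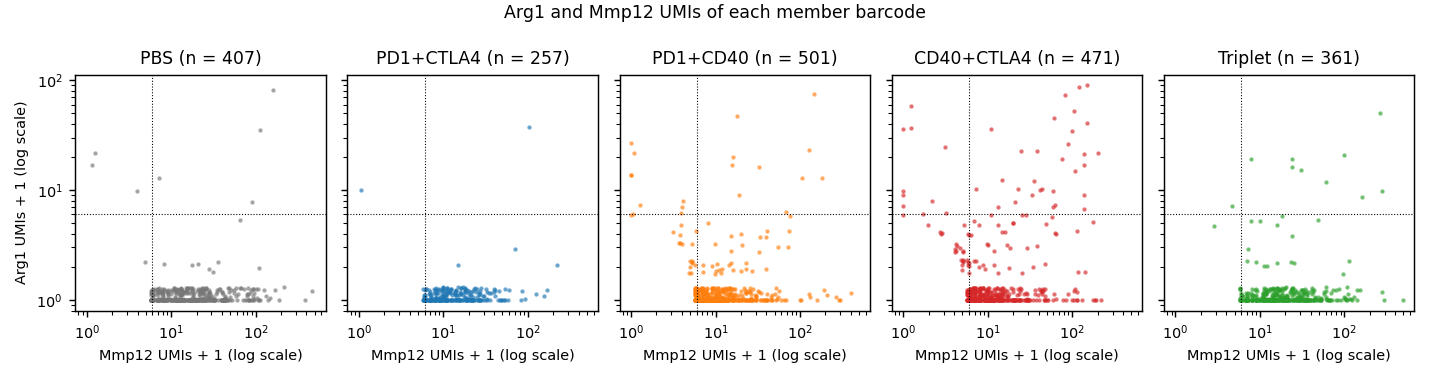
Arg1 UMIs (vertical axis) against Mmp12 UMIs (horizontal axis) in every member barcode, 1 panel per library, with points moved at random by up to 0.3 UMI to separate ties and dotted lines at 5 UMIs. Most points lie at 0 Arg1 UMIs and to the right of the vertical line; 45 barcodes of CD40+CTLA4 lie on or above the horizontal line, against 2 of PD1+CTLA4.

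The working name of the cells, Arg1 Mmp12 hypoxic macrophages, was checked on its 5 markers and held for only part of them. Hk2, the first enzyme of glycolysis, was at 59.3, 112, 169, 122 and 172 CPM in members and 48.4, 77.1, 76.7, 58.0 and 89.8 CPM in the other macrophages. Bnip3, a mitophagy receptor induced by HIF-1, was at 79.1, 35.6, 140, 159 and 100 CPM in members and 87.0, 27.2, 58.7, 57.0 and 60.0 CPM in the others. Both genes were over 2-fold higher in members in PD1+CD40 and CD40+CTLA4 only, and Bnip3 was lower in members in PBS. Spp1 was at 1315, 985, 2884, 3290 and 2658 CPM in members and 1006, 530, 1212, 1219 and 1539 CPM in the others. The cells are called Mmp12-high macrophages from here on.

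A list of 10 macrophage markers summed to 18828, 16502, 24766, 24949 and 17979 CPM in members and 25289, 19533, 24029, 23879 and 21408 CPM in the others. Most of the members' sum was Lyz2, and the rule itself required UMIs of Lyz2 or C1q genes in both classes. The C1q genes alone reached 10 UMIs in 71.0%, 74.3%, 43.7%, 43.1% and 67.9% of members. Among the others the shares were 51.7%, 35.4%, 18.4%, 20.7% and 61.5%. More than 50% of members in PD1+CD40 and CD40+CTLA4 thus needed Lyz2 to pass. The list's median log2 differences were -0.72, -0.15, -0.59, -0.49 and -0.71, and 5 of the 10 genes were lower in members of every library. Adgre1, which encodes F4/80, was at 21.3, 43.9, 34.9, 38.4 and 28.7 CPM in members and 98.7, 94.6, 56.9, 58.1 and 84.4 CPM in the others. The colony-stimulating factor receptor Csf1r was at 361, 316, 221, 219 and 259 CPM in members and 402, 287, 246, 228 and 285 CPM in the others. Summed over 7 neutrophil markers, members had 58.4, 224, 277, 109 and 110 CPM and the others 940, 632, 1280, 1117 and 443 CPM, with Ly6g, the defining gene, at 0 in members of every library but PBS. Of 9 osteoclast markers, members had 221, 149, 177, 254 and 156 CPM and the others 118, 82.8, 359, 528 and 78.3 CPM, with Calcr at 0 in every library. The 6 Renca markers summed to 62.8 to 113 CPM in members with Krt19 at 0 in every library, 9 T and NK cell markers to 23.3 to 101 CPM, 7 dendritic cell markers to 15.9 to 49.99 CPM, 4 B cell markers to at most 1.07 CPM, 5 fibroblast markers to at most 3.61 CPM and 4 endothelial markers to at most 9.48 CPM. The part of such cells in the results below was not tested.

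Within each library, members were compared with the other macrophages, a comparison free of differences between libraries. The members had been chosen within the same contrast, so it is a description. Coagulation factor genes F7 and F10, the chemokines Ccl6 and Ccl9, the integrin gene Itgax (CD11c) and the secreted mucin-like gene Mucl1 were higher in members, and Plac8, Ms4a4c, the alarmins S100a8 and S100a9 and Ccl12 were lower. A gene was called when CPM + 5 was 2-fold or more apart, one way, in all 5 libraries. Of 9756 genes with at least 20 UMIs in every library, 15 were called higher (0.154%) and 17 lower (0.174%), the rule's own Arg1 and Mmp12 among the former and Folr2 among the latter. Of 15 called higher that could be measured against other macrophages of matched depth, 12 were called again, and of 15 called lower, 10. With Triplet left out, 26 were called lower. F10, Ccl9 and Slc7a2 dropped out of the former at matched depth. Ly6c1, Ccl8, Maf, S100a8 and S100a9 dropped out of the latter.

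F7, which encodes coagulation factor VII, was at 154, 130, 66.4, 56.6 and 80.4 CPM in members and 35.2, 30.2, 16.5, 10.7 and 18.0 CPM in the others. F10, encoding factor X, was at 169, 168, 121, 125 and 93.2 CPM in members and 75.3, 73.9, 38.9, 32.7 and 37.2 CPM in the others. The products of these genes act in sequence in the tissue factor pathway of clotting. Both genes were named for being higher in members of every library, so a gap between the classes is description. Over the treated libraries the lowest member value of F7, 56.6 CPM, lay above the highest other value, 30.2 CPM. How many of all genes had such a gap was not counted.

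Ccl6, a chemokine of myeloid cells, was at 3116, 1727, 1121, 1448 and 1784 CPM in members and 1016, 677, 252, 269 and 502 CPM in the others. Ccl9, of the same cluster, was at 504, 570, 455, 630 and 571 CPM in members and 217, 246, 195, 220 and 226 CPM in the others. Over the treated libraries, Ccl9 in members ranged from 455 to 630 CPM and Ccl6 from 1121 to 1784 CPM. Macrophages above the limit on Folr2 and Cbr2, with fewer than 5 UMIs of Arg1 and Mmp12, are not among the others. They had Ccl6 at 474, 376, 266, 143 and 1660 CPM, near the members in Triplet only. Their Ccl9 was at 178, 203, 266, 264 and 411 CPM.

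Itgax was at 289, 244, 147, 165 and 224 CPM in members and 97.3, 82.3, 57.8, 56.8 and 69.6 CPM in the others. Cd200r4, a member of the CD200 receptor family, was at 70.2, 93.7, 67.9, 86.2 and 97.1 CPM against 16.1, 23.1, 21.3, 20.6 and 24.1 CPM. Adam8, a membrane metalloprotease, was at 161, 64.4, 98.1, 127 and 121 CPM against 62.1, 23.4, 32.6, 35.1 and 48.4 CPM. AA467197 was the remaining named gene, at 146, 126, 208, 260 and 195 CPM against 26.9, 28.3, 96.1, 100 and 49.1 CPM.

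Mucl1 had the largest median difference of the genes named as higher, at 1325, 1264, 335, 191 and 697 CPM in members and 475, 562, 38.0, 31.0 and 170 CPM in the others. It came from few barcodes: 142, 68, 24, 25 and 73 members held a Mucl1 UMI, and 1 barcode held 76.0% of its UMIs in CD40+CTLA4. Dcstamp, which encodes a transmembrane protein needed for fusion of macrophages, was called higher below the level at which genes were named. Its values were 162, 71.9, 37.3, 52.1 and 62.6 CPM in members and 21.5, 9.07, 10.4, 14.3 and 6.42 CPM in the others. Slc7a2, a transporter of cationic amino acids including arginine, was also called higher, at 18.6, 32.0, 87.8, 123 and 77.4 CPM against 4.89, 9.52, 26.5, 29.8 and 24.7 CPM.

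Plac8, a gene of monocytes, was at 7.17, 59.7, 42.2, 70.2 and 23.1 CPM in members and 165, 1228, 218, 397 and 312 CPM in the others. Ms4a4c was at 10.5, 30.8, 51.2, 68.7 and 33.1 CPM against 95.8, 222, 137, 172 and 189 CPM, and Ms4a7 was also called lower. Maf, a transcription factor of mature macrophages, was at 13.7, 36.8, 43.3, 40.7 and 32.5 CPM against 67.5, 158, 131, 98.4 and 125 CPM. The 7 monocyte markers summed to 509, 1053, 642, 553 and 730 CPM in members and 688, 2596, 761, 926 and 1024 CPM in the others, most of the former from Ccr2, the receptor that brings monocytes into tissue. Of these 7 markers 3 were called lower, 5 were below 0 in every library, Vcan had no common direction, and Ccr2 was above 0 in every library with log2 differences of 0.41, 0.16, 0.39, 0.35 and 0.29.

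Ccl12, a ligand of the monocyte receptor CCR2, was at 114, 27.7, 253, 211 and 140 CPM in members and 570, 151, 641, 532 and 889 CPM in the others. Ccl8 was at 23.4, 73.5, 72.0, 105 and 50.1 CPM against 905, 242, 532, 344 and 150 CPM. The alarmin subunit S100a8 was at 19.4, 74.7, 103, 57.7 and 49.1 CPM against 246, 207, 503, 399 and 186 CPM. Its partner S100a9 was called lower too, but 97.4% of its member UMIs in PBS came from 1 barcode, and the summed neutrophil markers given above were lower in members too.

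**Figure D2:**
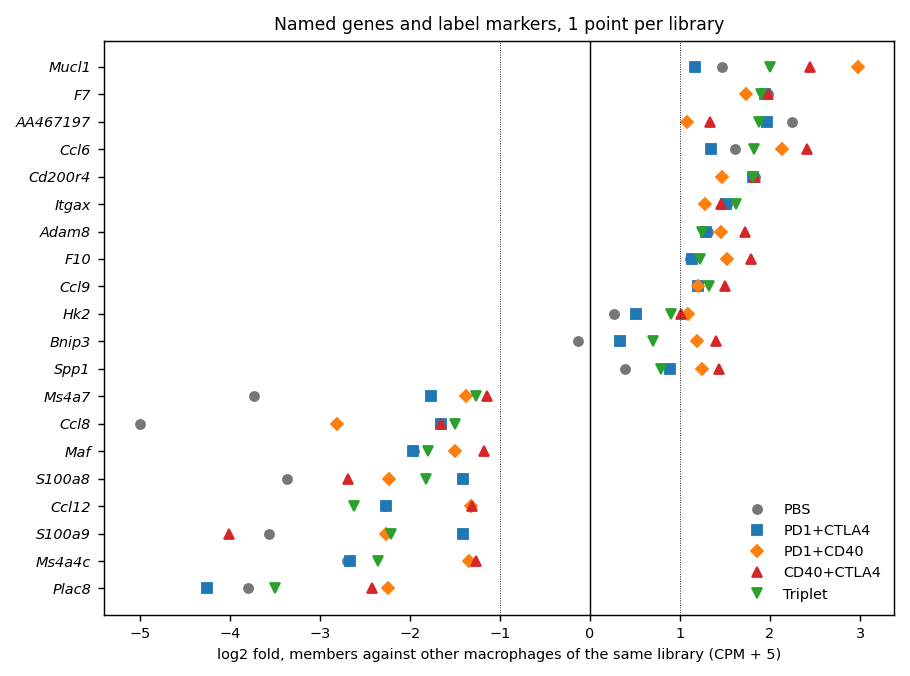
Log2 difference in CPM + 5 between Mmp12-high and other macrophages (horizontal axis) for the named genes and Hk2, Bnip3 and Spp1 (vertical axis), with 1 point per library and dotted lines at 2-fold. Every point of F7, Ccl6 and Itgax lies to the right of 2-fold, every point of Plac8 and Ccl12 to the left of it, and the Bnip3 points range from -0.13 in PBS to 1.40 in CD40+CTLA4.

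By list, MHC class II genes, which present antigen to CD4 T cells, were modestly higher in members of every library, and no list of a pathway or function had a median 2-fold apart in all 5. The neutrophil marker list did, with medians of -3.43, -1.41, -2.23, -2.61 and -1.82 over 5 genes; at matched depth they were -3.20, -0.12, -1.03, -0.93 and -0.36 over 3. All 9 measured MHC class II genes were higher in members in each library, with median log2 differences of 0.41, 0.45, 0.44, 0.51 and 0.58; over all genes measured the medians were -0.09, -0.04, -0.06, -0.08 and -0.02, and 9.17% of genes were higher in every library. H2-Aa was at 9914, 5524, 4258, 4054 and 4268 CPM in members and 7667, 4089, 2873, 2849 and 2819 CPM in the others. None of the 9 was called.

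Lipid-associated macrophage genes had medians of 0.27, 0.45, 0.48, 0.61 and 0.54 over 19 genes with none called. At matched depth they were -0.07, 0.37, 0.61, 0.79 and 0.60 over 16 genes, so the direction in PBS turned. Lpl, lipoprotein lipase, was at 185, 199, 192, 287 and 261 CPM in members and 86.0, 110, 115, 130 and 119 CPM in the others. Trem2, the lipid receptor of this group, was at 124, 194, 299, 333 and 181 CPM against 195, 183, 273, 273 and 235 CPM, without one direction. Among the 16 measured matrix proteases and regulators, Adam8 was called higher and none lower. Fn1, fibronectin, was at 813, 958, 519, 475 and 831 CPM in members and 363, 470, 175, 147 and 417 CPM in the others. Mmp14, a membrane-bound collagenase, was at 91.3, 82.6, 136, 140 and 115 CPM against 102, 61.7, 128, 139 and 133 CPM, without one direction.

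Interferon genes were lower in members. The 22 measured genes of the interferon-gamma response had medians of -0.52, -1.18, -0.59, -0.69 and -0.61, and 18 of the type I response -0.43, -0.98, -0.50, -0.50 and -0.83, with none called. The limit on Cxcl9, a target of interferon-gamma, was applied to both classes. Cd40, the receptor bound by the anti-CD40 antibody, was at 18.8, 14.2, 21.0, 33.4 and 15.6 CPM in members and 46.4, 33.8, 49.0, 71.8 and 39.8 CPM in the others, a log2 difference of -1.01 to -1.12 in 4 libraries and just short of 2-fold in CD40+CTLA4, so it was not called.

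The differences in hypoxia and glycolysis genes varied by library, and the glycolysis median was above 0 in every library. Over 27 hypoxia genes the median log2 difference was -0.07 in PBS, 0.03 in PD1+CTLA4, 0.63 in PD1+CD40, 0.78 in CD40+CTLA4 and 0.38 in Triplet, and over 17 glycolysis genes 0.16, 0.23, 0.67, 0.73 and 0.20. None of these genes was called in all libraries. Above 0 in every library were 13 of the 17 glycolysis genes and 9 of the 27 hypoxia genes, where 9.17% of all genes were. Against other macrophages of matched depth the hypoxia medians were -0.12, 0.26, 0.69, 0.87 and 0.48. Without the members holding 5 or more Arg1 UMIs they were -0.15, 0.01, 0.60, 0.52 and 0.27, as an alternative chosen after the data were seen. Hilpda, a lipid droplet protein induced in hypoxia, was at 160, 49.8, 143, 172 and 72.4 CPM in members and 75.3, 23.1, 30.3, 31.4 and 20.5 CPM in the others. Slc2a1, the glucose transporter, was at 82.5, 37.5, 93.0, 97.8 and 64.8 CPM against 84.1, 25.9, 37.5, 33.9 and 36.3 CPM. Oxidative phosphorylation genes had medians of -0.17 to 0.05 over 28 genes.

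Genes of arginine and polyamine metabolism had no common direction, with medians of -0.08 to 0.07 over 13 genes. Arg2, the mitochondrial arginase, was at 59.7, 47.0, 107, 118 and 45.3 CPM in members and 58.7, 53.3, 56.1, 52.6 and 38.2 CPM in the others. Nos2, which makes nitric oxide from arginine, was at 0.633, 1.98, 5.36, 12.7 and 9.22 CPM in members.

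**Figure D3:**
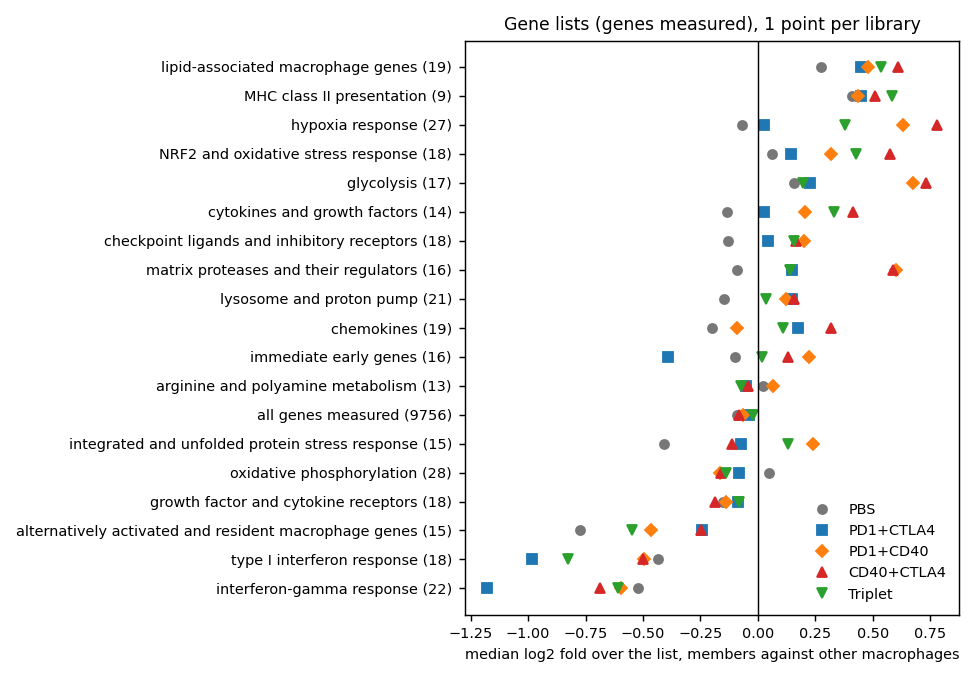
Median log2 difference in CPM + 5 between Mmp12-high and other macrophages for each gene list (vertical axis), with 1 point per library, and for all 9756 genes measured. The interferon lists lie below 0 in every library and MHC class II above it, while the hypoxia list ranges from -0.07 in PBS to 0.78 in CD40+CTLA4.

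Members just inside the rule and macrophages just outside it were close in hypoxia genes and Itgax and apart in Mucl1. The 34, 26, 101, 86 and 16 members with exactly 5 UMIs of Arg1 and Mmp12 had a summed hypoxia level of 3207, 1951, 3111, 3297 and 2317 CPM. The 34, 30, 179, 146 and 18 other macrophages with 4 UMIs had 2891, 2003, 2629, 3362 and 2996 CPM. Itgax was at 175, 233, 99.1, 107 and 149 CPM in the former and 213, 198, 85.6, 104 and 136 CPM in the latter. Summed MHC class II genes were at 42320, 28974, 19853, 21451 and 24029 CPM in the former. In the latter they were at 45084, 27006, 22942, 19763 and 20713 CPM, without one direction. Mucl1, held by few barcodes, was at 241, 1611, 32.5, 24.6 and 83.0 CPM against 1386, 2560, 218, 13.02 and 4.12 CPM, without one direction.

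The few members with Arg1 differed from the rest. In PD1+CD40 and CD40+CTLA4, where 21 and 45 members had 5 or more Arg1 UMIs, hypoxia and glycolysis genes and the chemokine genes Ccl2 and Ccl7 were higher in them, and MHC class II genes and Itgax were lower, than in the 466 and 407 members with Mmp12 only. This split was chosen after the data were seen and uses a gene of the rule. Of 8822 genes, 106 were at least 2-fold higher in both libraries (1.2%) and 289 lower (3.28%). Of 29 hypoxia genes measured, 13 were higher and 0 lower, with medians of 0.89 and 1.23 on the log2 scale where all genes had -0.18 and -0.20. Of 18 glycolysis genes, 5 were higher, and of 9 MHC class II genes, 8 were lower with medians of -2.69 and -1.75. No barcode counts as a replicate, and each library gives 1 value per kind.

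Bnip3, Ankrd37 and Hilpda were the hypoxia genes among the 10 genes named as higher. Bnip3 was at 468 CPM (interval 388 to 560) in Arg1-high members of PD1+CD40 and 538 CPM (477 to 604) in those of CD40+CTLA4, against 121 and 106 CPM in members with Mmp12 only. Ankrd37, an ankyrin repeat gene induced by HIF-1, was at 267 (208 to 339) and 335 CPM (287 to 388) against 71.4 and 63.4 CPM. Hilpda was at 385 (313 to 470) and 636 CPM (570 to 707) against 129 and 108 CPM. These genes were named for being at least 2-fold higher in this same split, so their distance from the Mmp12-only values is description. The intervals cover counting error and not variation between barcodes.

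The 250 bases before the start sites of these genes are shown because ACGTG is a core of the element that HIF-1 binds. The sequences are from RefSeq on build GRCm38.p6, run 5′ to 3′ on the strand of the gene, and carry the motif in capitals, read on both strands. In Bnip3 (chr7:138909507-138909756, minus strand) a match on each strand overlaps the other in CACGTG. The Ankrd37 window is chr8:45999851-46000100 on the minus strand, and the Hilpda window is chr6:29272376-29272625 on the plus strand, its second start site.
Bnip3: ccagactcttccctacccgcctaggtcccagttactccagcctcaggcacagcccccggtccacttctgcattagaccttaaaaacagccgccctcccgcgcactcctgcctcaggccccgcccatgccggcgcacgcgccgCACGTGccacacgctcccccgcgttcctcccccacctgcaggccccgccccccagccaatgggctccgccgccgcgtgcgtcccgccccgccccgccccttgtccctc
Ankrd37: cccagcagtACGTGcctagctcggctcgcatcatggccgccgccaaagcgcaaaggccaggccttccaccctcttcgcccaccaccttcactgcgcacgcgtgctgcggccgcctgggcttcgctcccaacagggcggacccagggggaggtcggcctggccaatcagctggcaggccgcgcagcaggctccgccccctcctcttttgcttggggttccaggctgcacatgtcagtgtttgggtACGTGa
Hilpda: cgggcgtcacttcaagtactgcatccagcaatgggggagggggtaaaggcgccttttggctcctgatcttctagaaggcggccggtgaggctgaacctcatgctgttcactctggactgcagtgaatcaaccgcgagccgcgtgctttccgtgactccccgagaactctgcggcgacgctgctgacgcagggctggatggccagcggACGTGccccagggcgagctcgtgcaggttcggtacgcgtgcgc
The motif lay 107 bases before the start in Bnip3, 6 and 241 bases before it in Ankrd37, and 43 bases before the second start of Hilpda. The window of the first Hilpda start, chr6:29272238-29272487, held 0 matches. Of the 30 hypoxia genes, 26 matched a RefSeq promoter by symbol, and 20 of them (76.9%) held the motif in at least 1 window. Of 18 glycolysis genes 8 (44.4%) held it, and of all 27025 genes 4998 (18.5%). The lists were drawn up as genes of a known response and a known pathway, so these shares describe the lists and not the cells. A match is a description of these letters and shows no binding.

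Other named genes of the Arg1-high members included chemokine and stress genes. Of 19 chemokine genes 5 were higher in both libraries, among them Ccl2, Ccl3 and Ccl7, and 3 were lower, Ccl8, Ccl22 and Cxcl10. Ccl2, the main CCR2 ligand, was at 1943 CPM (1775 to 2122) in PD1+CD40 and 1557 CPM in CD40+CTLA4, against 223 and 236 CPM in members with Mmp12 only, and Ccl7 at 350 and 412 CPM against 40.3 and 42.7 CPM. Hmox1, the heme-degrading enzyme, was at 802 and 3072 CPM against 196 and 467 CPM. The lysosomal protease gene Ctsl was at 2584 and 3010 CPM against 419 and 511 CPM. Maf, which was lower in Mmp12-high macrophages as a whole, was at 248 and 139 CPM against 29.8 and 26.2 CPM. Mt2, a metallothionein, and Rgcc were also higher. Spp1 was at 12173 and 5703 CPM against 2323 and 2974 CPM and passed 2-fold in PD1+CD40 only. Macrophages above the limit on Folr2 and Cbr2, with fewer than 5 UMIs of Arg1 and Mmp12, shared part of this profile. They had Ccl2 at 1928 and 1740 CPM, Ccl7 at 965 and 876 CPM and Maf at 706 and 472 CPM. Their H2-Aa was at 448 and 742 CPM and their Itgax at 18.3 and 18.4 CPM. These traits were thus not particular to Arg1-high members. Bnip3 in those macrophages was at 61.5 and 60.9 CPM.

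H2-Aa, an MHC class II chain, was at 500 (416 to 594) and 1025 CPM (940 to 1114) in Arg1-high members against 4499 and 4506 CPM in those with Mmp12 only. H2-Eb1 was at 275 and 630 CPM against 3197 and 3178 CPM, and Mgl2, a C-type lectin, at 31.5 and 69.6 CPM against 358 and 326 CPM. Itgax was at 55.1 and 67.7 CPM against 154 and 179 CPM. No Mucl1 UMI was found in Arg1-high members of either library, where 3 counts allow up to 11.8 and 5.64 CPM, and those with Mmp12 only had 355 and 220 CPM. As only 24 of 501 and 25 of 471 members held any, with the barcode named above among the latter, a difference was not detectable in 21 and 45 barcodes. Ltb, Cxcl10, Tmem176a, H2-M2, H2-DMb1 and Napsa were the other named genes lower in Arg1-high members.

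Medians over barcodes had the same order in every library, including those with few Arg1-high members. The median percent of a barcode's UMIs from hypoxia genes was 1.53%, 1.11%, 0.732%, 0.990% and 0.931% in the 7, 2, 21, 45 and 11 Arg1-high members. In members with Mmp12 only it was 0.275%, 0.171%, 0.293%, 0.284% and 0.191%. The ranges overlapped: single Mmp12-only members reached 3.43% in PBS and 1.82% in PD1+CD40. For MHC class II the medians were 3.47%, 0.558%, 0.481%, 0.510% and 0.553% in Arg1-high members and 4.64%, 2.87%, 1.96%, 1.94% and 2.61% in those with Mmp12 only.

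**Figure D4:**
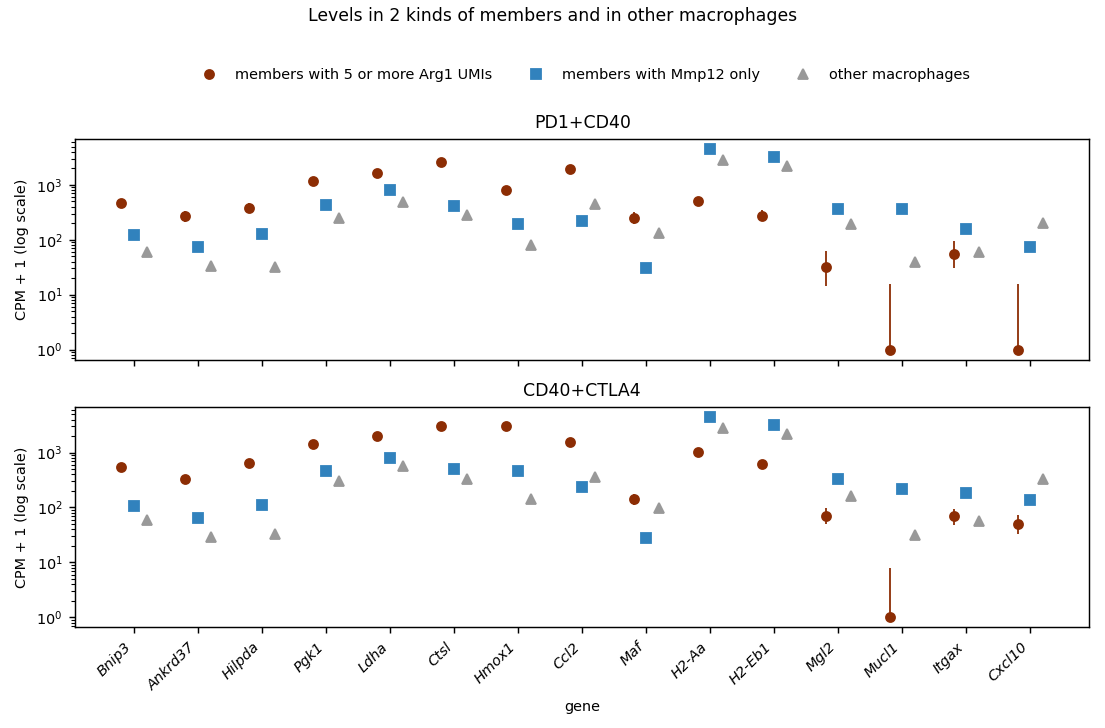
Levels (CPM + 1, log scale) of 15 genes in Arg1-high members, members with Mmp12 only and other macrophages of PD1+CD40 and CD40+CTLA4, with exact 95% Poisson intervals on the Arg1-high values. Hypoxia genes such as Bnip3 (468 and 538 CPM in Arg1-high members) lie above, and MHC class II genes such as H2-Aa (500 and 1025 CPM) below, both other kinds.

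Between treated libraries the question was how the members differed with the antibodies given. Of the 5 comparisons made, 3 share PD1+CTLA4 as the reference and 2 share Triplet, so their values are not independent and are given side by side. A gene was called at a 2-fold difference in CPM + 5 if the higher library reached 50 CPM and 30 UMIs. The ratios below carry exact intervals for counting error, and no p-value can be given for single libraries. Libraries and antibodies cannot be told apart in this design.

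Members of PD1+CD40 and CD40+CTLA4 lacked most of the transcripts of Ear2, Fcrls and Chn2 found in members of PD1+CTLA4, and members of Triplet had them. Ear2, an eosinophil-associated ribonuclease gene, was at 420 CPM (395 to 446) in PD1+CTLA4, 19.9 (16.1 to 24.4) in PD1+CD40, 11.8 (8.83 to 15.5) in CD40+CTLA4 and 331 (315 to 347) in Triplet. Fcrls, an Fc receptor-like gene, was at 181, 13.5, 13.6 and 164 CPM, and Chn2, a GTPase-activating protein of Rac, at 99.6, 11.8, 10.7 and 92.8 CPM. In PBS members they were at 426, 270 and 77.6 CPM. The other macrophages had the same order, with Ear2 at 152, 5.59, 4.77 and 97.8 CPM in the treated libraries, so the pattern was not particular to the members.

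Compared with PD1+CTLA4, 66 of 3136 genes were higher in PD1+CD40 members (2.1%) and 240 lower (7.65%), and 96 of 3159 were higher in CD40+CTLA4 members (3.04%) and 271 lower (8.58%). The balance depended on scaling: 21.6% and 26.2% of the calls were higher on the CPM scale and 51.5% and 57.3% with median-of-ratios scaling, which moved all log2 values by 0.26. It also turned when barcodes were thinned to 2000 UMIs. Then 111 genes were higher and 82 lower in PD1+CD40 (57.5% higher), and 157 higher and 118 lower in CD40+CTLA4 (57.1%). Thinning left out shallower barcodes and applied the rule anew, so members numbered 99 in PD1+CTLA4, 170 in PD1+CD40 and 200 in CD40+CTLA4. Depth and membership thus changed together and cannot be told apart here. Members of Triplet differed from those of PD1+CTLA4 in fewer genes, with 21 of 3095 higher (0.679%) and 14 lower (0.452%), where 60.0% were higher by CPM, 74.4% by median-of-ratios scaling and 83.1% after thinning.

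Hmox1 was at 85.0 CPM in PD1+CTLA4, 232 in PD1+CD40, 781 in CD40+CTLA4 and 141 in Triplet. The ratio of CD40+CTLA4 to PD1+CTLA4 was between 8.0 and 10.6 by counting, and in the other macrophages the levels were 59.0, 78.5, 141 and 62.9 CPM. The 45 Arg1-high members held 1634 of the 3434 Hmox1 UMIs of CD40+CTLA4; in members with Mmp12 only the levels were 79.5, 196, 467 and 131 CPM. Ccl12 was at 27.7 CPM in PD1+CTLA4 members and 253, 211 and 140 CPM in those of PD1+CD40, CD40+CTLA4 and Triplet, while the other macrophages, at 151, 641, 532 and 889 CPM, were higher in the same 3 libraries but in another order. Mfge8, which bridges phagocytes to dying cells, was at 51.4 CPM in PD1+CTLA4 members and 232, 195 and 302 CPM in the same 3 libraries; the ratio of Triplet to PD1+CTLA4 was 4.91 to 7.09. Among the treated libraries all 3 genes were higher in those with anti-CD40 than in PD1+CTLA4, Hmox1 in Triplet by less than 2-fold. PBS members, which had no anti-CD40 and enter no ratio, had Hmox1 at 258 CPM and Ccl12 at 114 CPM. Whether anti-CD40 raised these genes was not tested.

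Fpr2, a formyl peptide receptor, was at 11.1, 97.9, 82.1 and 36.5 CPM in PD1+CTLA4, PD1+CD40, CD40+CTLA4 and Triplet members, and Vcan, a proteoglycan of monocytes, at 8.69, 59.5, 36.1 and 18.0 CPM. In the other macrophages Vcan was at 38.3, 41.4, 31.0 and 38.8 CPM and so was nearly level there. Rgcc, Cxcl3, Upp1 and Cxcl10 were further named genes higher with PD1+CD40 or CD40+CTLA4 than with PD1+CTLA4. Adgrl3, an adhesion receptor, was at 59.3 CPM in PD1+CTLA4 members and 16.8 CPM in Triplet; it had 2 UMIs in each of PD1+CD40 and CD40+CTLA4, with ratios to PD1+CTLA4 of 0.000867 to 0.0266 and 0.00092 to 0.0282. The scavenger receptor gene Cd36, Cacna1a, Trerf1 and Mucl1 were the other named genes lower in 1 of these comparisons. Ccdc162, Hspa1b, Pf4 and Ccl2 were named as higher, and Ramp1, Plac8 and Apoe as lower, in Triplet than in PD1+CTLA4.

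Against PD1+CD40, Triplet members had 63 of 2875 genes higher (2.19%) and 10 lower (0.348%). Against CD40+CTLA4 they had 81 of 2903 higher (2.79%) and 25 lower (0.861%). The share of higher calls was 86.3% and 76.4% by CPM and 65.3% and 47.7% by median-of-ratios scaling, with a shift of 0.18 and 0.19. In the other macrophages these comparisons had 15 higher with 34 lower, and 25 higher with 40 lower, so the balance there was the opposite; this difference was not tested. Alox15, a lipoxygenase, was at 52.7 CPM in Triplet members, 8.78 in PD1+CD40 and 6.59 in CD40+CTLA4, and at 5.45, 3.72 and 2.97 CPM in the other macrophages. Ltb, lymphotoxin beta, was at 41.5 CPM in Triplet members and 136 and 121 CPM in PD1+CD40 and CD40+CTLA4. Vcan, Fpr2 and Arg2 were lower in Triplet than in PD1+CD40, and Hmox1, Fxyd2, Acp5, Plac8 and Ctsl lower than in CD40+CTLA4.

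**Figure D5:**
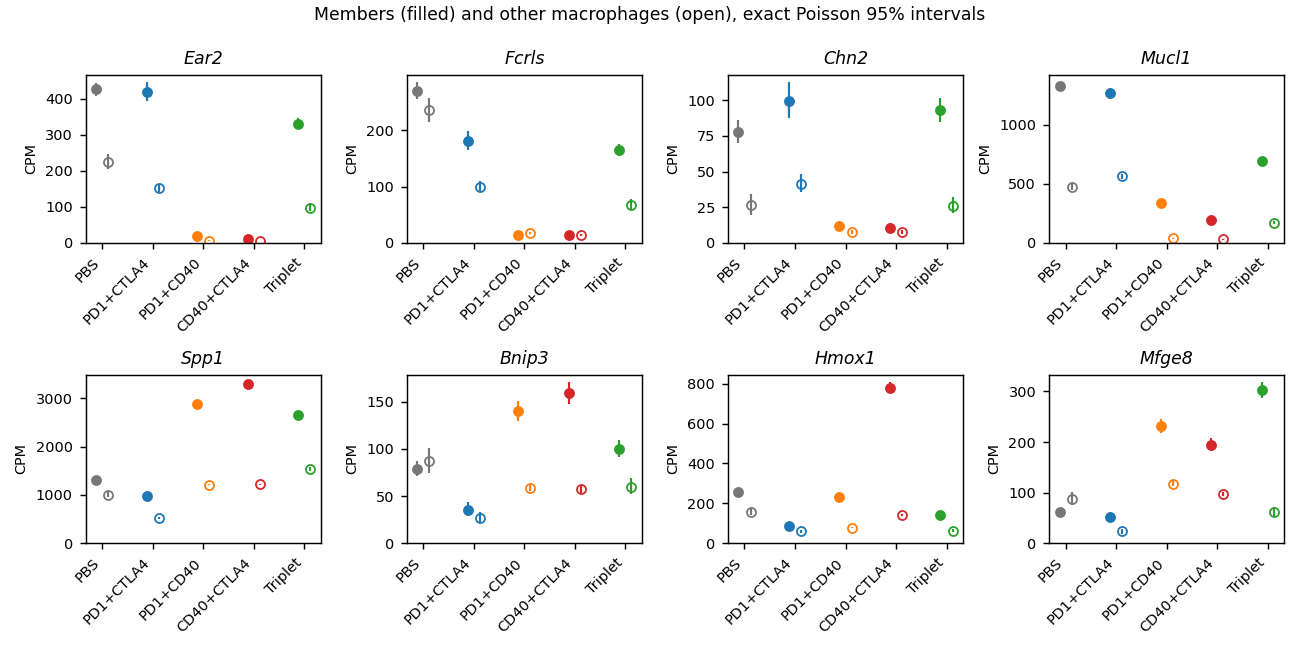
Levels (CPM) of 8 genes in Mmp12-high macrophages (filled) and other macrophages (open) of each library, with exact 95% Poisson intervals as bars. Ear2, Fcrls and Chn2 are low in PD1+CD40 and CD40+CTLA4 in both classes, and Hmox1 is highest in CD40+CTLA4 members at 781 CPM.

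Hypoxia genes were higher in members with anti-CD40 than with PD1+CTLA4. The median log2 ratio to PD1+CTLA4 was 0.74 over 30 genes in PD1+CD40, 0.94 over 29 genes in CD40+CTLA4 and 0.50 over 29 genes in Triplet, and the medians in the other macrophages were 0.04, 0.09 and -0.14. Over all genes the members' medians were -0.19, -0.19 and -0.07. The 2-fold line was passed upward by 6, 8 and 1 hypoxia genes and downward by 0, where 2.1%, 3.04% and 0.679% of all genes tested were called higher. Triplet lay between, with -0.33 against PD1+CD40 and -0.50 against CD40+CTLA4. With the limits on Cxcl9, Folr2, Cbr2, Ctsk and cycle genes dropped, the hypoxia medians were 0.38 and 0.49 in PD1+CD40 and CD40+CTLA4. Glycolysis medians against PD1+CTLA4 were 0.64, 0.81 and 0.43 in members and 0.10, 0.30 and 0.38 in the other macrophages. Whether members and other macrophages differed in this was not tested, as each group had 1 library.

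MHC class II genes were lower in the same 3 libraries than in PD1+CTLA4, with medians of -0.39, -0.45 and -0.34 in members and -0.37, -0.43 and -0.46 in the other macrophages. With median-of-ratios scaling the members' values were -0.13, -0.19 and -0.25. Alternatively activated and resident macrophage genes had medians of -0.82, -0.65 and -0.26 in members. In the other macrophages they were -0.59, -0.71 and -0.35, so the fall was not particular to the members. The type I interferon list had 0.43, 0.69 and 0.36, with 0, 3 and 0 of 18 genes past 2-fold upward against the same shares of all genes, and -0.19, 0.22 and 0.14 in the other macrophages. The lipid-associated list had 0.26, 0.69 and -0.03 in members and 0.02, 0.17 and 0.12 in the other macrophages. Among its genes Fabp5, a fatty acid binding protein, was at 203 CPM in PD1+CTLA4 members and 698, 943 and 515 CPM in those of PD1+CD40, CD40+CTLA4 and Triplet.

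Macrophages that the other limits had removed shared part of this profile. Cycling macrophages with 5 or more UMIs of Arg1 and Mmp12 numbered 170, 157, 261, 203 and 311 and had Itgax at 192, 133, 103, 99.4 and 143 CPM, where cycling macrophages below 5 UMIs had 69.5, 65.1, 38.9, 36.9 and 41.3 CPM. Arg1 in the former was at 1.03, 0, 9.04, 24.6 and 19.6 CPM, below the members in every library. Macrophages with Folr2 or Cbr2 and 5 or more UMIs of Arg1 and Mmp12 numbered 62, 15, 32, 48 and 18. Their Arg1 level was 68.5, 15.9, 438, 630 and 65.2 CPM, above that of the members in all libraries but PD1+CTLA4.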

How the data were processed

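Per the file headers and the labels' protocols, the deposited files are 10x Genomics matrices of UMI counts per gene and barcode from a 5′ kit, made with Cell Ranger (4 for PBS and 7.1.0 for the other libraries, per the file headers); the submitters' processing notes name mm9, while the sources used here do not give the gene annotation. The T cell receptor V segment shares given above differed between PBS and the treated libraries, so whether the same kit made every file was not settled. The members, lists and rules were chosen with earlier results of these data known. Raw counts were summed over the barcodes of a class, scaled to CPM of that sum and compared as log2(CPM + 5) with Python 3.11.15, numpy 2.4.6, scipy 1.17.1 and pandas 2.3.3; the arithmetic was tested on simulated counts. CPM is per UMI and not per length, so levels are not compared between genes. Classes within a library were compared over genes with at least 20 UMIs over both. Genes were named as the 10 highest and 10 lowest called genes by median log2 difference reaching 50 CPM and 30 UMIs in the higher class. Between treated libraries they were the 6 highest and 6 lowest whose ratio interval excluded 2-fold, with at most 25% of the higher library's UMIs in 1 barcode. Genes of the rule and mitochondrial, ribosomal, receptor-segment, predicted and sex-linked genes were left out. Dcstamp, Slc7a2, Fabp5, Mmp14, Trem2, Nos2 and other members of the lists were named to describe a list or a role. Intervals are exact Poisson for levels, Clopper-Pearson for shares and conditional binomial for ratios, at 95%. No doublet caller was run: the T cell and Epcam limits stood in, and the deepest 5% of barcodes were left out as an alternative. Promoters came from RefSeq on GRCm38.p6, which is not the build the notes name, and were matched by symbol only.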

Additional observations from a re-analysis of the deposited data

Results flagged for a closer look

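Immediate early genes, which respond within minutes to stimulation or to tissue handling, differed in direction between libraries in the comparison of Mmp12-high with other macrophages. The median log2 difference over 16 genes was -0.10 in PBS and -0.39 in PD1+CTLA4, the libraries without anti-CD40, and 0.22 in PD1+CD40, 0.13 in CD40+CTLA4 and 0.02 in Triplet, the libraries with it. The median of the latter 3 was 0.13. At matched depth the medians were -0.22, 0.02, 0.26, 0.28 and 0.25, so PD1+CTLA4 was no longer below 0 and the split by anti-CD40 did not hold. The difference between the groups of libraries was not tested.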

How the results depend on the processing

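No paired analysis was possible because each group had 1 library. With 1 library per group, depth and pooling limit what can be seen, and under the alternatives 176 of the values that answer a comparison moved by less than their counting interval or 1.5 times and 72 by more. The share of members depended on the threshold: at 3 or more UMIs it was 27.1%, 15.7%, 8.75%, 7.65% and 22.2%, at 10 or more 16.4%, 7.37%, 1.96%, 1.90% and 16.1%, and with 4 limits dropped 38.5%, 24.5%, 7.49%, 7.69% and 45.7%. A threshold of 500 CPM and at least 2 UMIs gave 26.7% in PBS, 14.6% in PD1+CD40 and 12.1% in CD40+CTLA4. Cells of at least 1000 UMIs and 500 genes gave 5.31% and 4.52% in the latter pair. Thinning to 2000 UMIs gave 12.7%, 4.57%, 3.67%, 3.53% and 9.40%, and thinning to 5000 gave 27.2% in PBS, 11.4% in PD1+CD40 and 10.5% in CD40+CTLA4. Judged at 10 UMIs of each gene, members with Mmp12 only were 70.8%, 58.4%, 43.9%, 42.9% and 77.6%.

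Genes higher in members of every library numbered 26 against macrophages without Arg1 and Mmp12, 51 at 1.5-fold, 4 at 3-fold, 24 with a pseudocount of 1 and 8 with 20. Genes lower numbered 28, 62, 3, 29 and 9 under the same settings, 7 at 500 CPM, 8 with the limits dropped and 26 without the Triplet library. For Triplet against PD1+CTLA4, PD1+CD40 against PD1+CTLA4, CD40+CTLA4 against PD1+CTLA4, Triplet against PD1+CD40 and Triplet against CD40+CTLA4, the calls were 216, 990, 1052, 331 and 460 at 1.5-fold. They were 13, 71, 88, 19 and 23 at 3-fold, 23, 174, 220, 40 and 60 with a pseudocount of 20, and 122, 628, 727, 163 and 241 with no minimum. Thinning gave 77, 193, 151 and 250 for all but CD40+CTLA4 against PD1+CTLA4, and dropping the limits gave 32 and 54 for the last pair.

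Signs reversed in Triplet members for the values near 0 given here. MHC class II became -0.074 against PD1+CD40 and -0.059 against CD40+CTLA4 with median-of-ratios scaling. Against PD1+CD40, the resident gene list became -0.065 at 500 CPM, and Mmp12 -0.056 both at 10 UMIs and after thinning. Spp1 there became 0.073 at 3 UMIs, 0.075 at 500 CPM, 0.028 with the limits dropped, 0.088 without the deepest barcodes and 0.090 without Arg1-high members. The cause of these changes was not tested beyond the fewer or more genes and cells each setting admits.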

Other observations

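Among members with Mmp12 only, those with more Mmp12 also had more of several other genes. Members were split into 3 equal parts, low, middle and high, by Mmp12 UMIs per other UMI within each library, a split chosen after the data were seen and made on a gene of the rule. Lpl differed between the high and the low part by 2.03, 1.92, 0.92, 1.35 and 1.61 on the log2 scale in PBS, PD1+CTLA4, PD1+CD40, CD40+CTLA4 and Triplet. Dcstamp differed by 1.55, 1.53, 3.14, 1.75 and 1.90, and Hilpda by 1.88, 2.22, 2.92, 3.09 and 1.77. Ccl6, Cd200r4, Itgax, Adam8, F7, F10, Ccl9, Spp1, Lgals3 and Fn1 were higher in the high part of all 5 libraries. Only a chosen set of genes was followed in this split, many of them already named as higher in members. How many of all genes rose in the same way was not computed, so these genes are given as description.

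The hypoxia list summed to more in the high part of each library, by 0.54, 0.43, 1.03, 1.03 and 0.32. In PD1+CD40 and CD40+CTLA4, where the difference was largest, the high part was shallow, with median depths of 1954 and 2009 UMIs against 11737 and 11817 in the low part. The minimum of 5 UMIs brings shallow barcodes into the high part, so depth and Mmp12 cannot be told apart there. Adgre1, Plac8, Ccl12, Cd40 and the interferon-gamma list were lower in the high part of all 5. MHC class II, Mucl1, Mgl2 and Apoe had no common direction.

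NRF2 and oxidative stress genes had median log2 differences between members and other macrophages of 0.06, 0.14, 0.32, 0.57 and 0.43 over 18 genes. Slc7a11, the cystine transporter, was at 62.0, 60.1, 86.5, 107 and 79.8 CPM in members and 30.3, 24.9, 41.6, 49.0 and 29.8 CPM in the others. Ccl17, a chemokine of CCR4-bearing T cells, was at 329, 314, 285, 348 and 198 CPM in members and 118, 82.5, 239, 278 and 56.5 CPM in the others. Ccl22, which binds the same receptor, was at 23.8, 13.8, 14.1, 23.9 and 17.0 CPM in members and 63.5, 26.3, 123, 149 and 53.3 CPM in the others, opposite to Ccl17 in every library.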
